A study of Mus musculus and Rattus norvegicus with 4 samples.

Results

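The troponin and tropomyosin genes of the mouse were examined as a set of 10 genes taken by name, Tnni1, Tnni2, Tnnt1, Tnnt2, Tnnt3, Tnnc1, Tnnc2, Tpm1, Tpm2 and Tpm3, out of 21887 protein-coding genes. Occupancy by MEF2A, a muscle transcription factor, came from ChIP-exo, in which an exonuclease trims immunoprecipitated DNA to the edge of the bound protein. The library was made from C2C12 cells, a mouse line of skeletal myoblasts with no genetic change given in its labels, after 48 h in differentiation medium with 2% horse serum. The other libraries of the series, 4 in all with 1 in each group, were MEF2A from primary cardiomyocytes of newborn rats and normal rabbit IgG from either cell type. The lists of MEF2A peaks hold 2797 C2C12 peaks and 1868 rat peaks. The IgG libraries were not analysed here. Rat peaks were not assigned to genes, because no rn5 gene positions were used, so all results below are from C2C12 cells. With 1 library and no read counts, depth is unknown and no value below carries a replicate error or a test. Peak lists hold no expression values, so the cell type was not checked against its markers.

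Troponin and tropomyosin form the calcium switch of the thin filament in striated muscle. Troponin C binds calcium, troponin I inhibits the interaction of actin with myosin, and troponin T anchors the complex to tropomyosin, the coiled coil that lies along the actin filament. Fast skeletal, slow skeletal and cardiac fibres use different troponin genes. MEF2 proteins bind an A/T-rich element, the MEF2 box, found in many muscle promoters and enhancers.

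Of the 10 genes, 4 had a MEF2A peak and 6 had none. The 4 were Tpm2, which encodes beta-tropomyosin, the fast skeletal pair Tnni2 and Tnnt3, and the slow skeletal Tnni1. Each peak was given to whichever protein-coding span lay nearest, up to 100 kb away, and across all protein-coding genes 7.73% (1691 genes) had a peak by this rule. The 4 genes held 5 peaks in all, 2 of them at Tnnt3. Nearness to a peak is not evidence that MEF2A acts on the gene. The score is the value deposited with each peak, on a scale that is not stated. Strong and weak are used here only for high and low scores. In the C2C12 list the score runs from 50.1 to 3100 with a median of 77.0. The Tpm2 peak scored 315, and the other 4 scored between 51.3 and 80.7. Tpm2 alone therefore had a peak scoring 100 or more, which 3.47% of protein-coding genes had. The set thus held 1 strong peak and 4 peaks near or below the middle of the list.

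**Figure D1:**
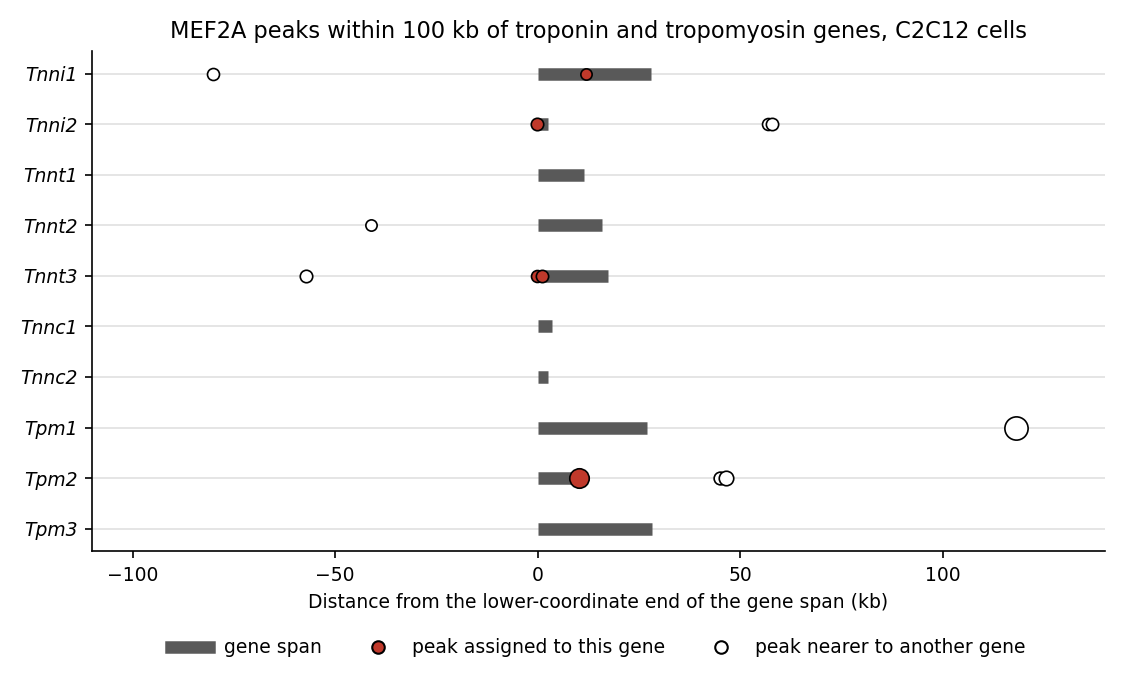
MEF2A peaks around each of the 10 genes in C2C12 cells, drawn by distance from the lower-coordinate end of the gene span in kb. Grey bars are gene spans, filled circles are peaks assigned to that gene, open circles are peaks nearer to another gene, and circle area grows with the score. The filled circles lie on or beside 4 spans, and Tnnt1, Tnnc1, Tnnc2 and Tpm3 have no peak within 100 kb.

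Tpm2 had the strongest peak of the set. The gene spans 9.86 kb on chromosome 4 (43513726 to 43523583, mm10), and beta-tropomyosin is found mainly in skeletal muscle and smooth muscle. Its peak lay at 43523655 to 43523974, 72 bp beyond the higher-coordinate end of the span. With a score of 315 it ranked 231 of 2797, so 8.22% of peaks scored higher. It was 320 bp wide, against a median width of 144 bp for all C2C12 peaks (quartiles 116 and 230 bp). Ranked by the highest peak of each gene, Tpm2 stood at 195 of the 1691 genes with a peak.

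The Tpm2 peak lay directly upstream of the start site. Tpm2 is on the minus strand, and RefSeq (GRCm38.p6) places a start at 43523554. The near edge of the peak was 0.101 kb upstream of that start. The promoter windows of this table run from 250 bases before a start to 50 after it, and of the 8 genes with such a window Tpm2 was the only one for which a peak overlapped it. Tnni2 and Tnnt3, with peaks 149 and 36 bp outside a span end, had no window. Whether their peaks overlap a promoter was therefore not checked. Across RefSeq, 99 of 32851 windows (0.301%) were overlapped, by 85 peaks, and the Tpm2 peak ranked 15 among those 85, whose median score was 82.5. The window is printed to show which bases the peak covered, at chr4:43523505-43523804 on the minus strand, 5′ to 3′, with capitals for the 150 bases under the peak (positions -250 to -101 from the start). The other 170 bases of the peak lie farther upstream, outside the window.
Tpm2: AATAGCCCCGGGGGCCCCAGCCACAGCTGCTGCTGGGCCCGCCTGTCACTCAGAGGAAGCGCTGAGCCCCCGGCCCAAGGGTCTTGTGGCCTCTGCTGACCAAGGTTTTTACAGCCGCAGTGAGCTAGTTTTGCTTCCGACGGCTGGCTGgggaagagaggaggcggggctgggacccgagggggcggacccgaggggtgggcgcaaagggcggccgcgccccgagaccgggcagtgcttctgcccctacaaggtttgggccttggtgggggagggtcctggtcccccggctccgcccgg

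The letters of the MEF2 box were not found in this Tpm2 window on either strand. Of all 32851 windows 3.19% held it, as did 13 of the 99 windows under a peak (13.1%), so Tpm2 was among 86 such windows without it. No match says only that these letters are not in this window. The stretch under the peak held an E-box (CANNTG, the element bound by MyoD family proteins) whose first base is at -227. An E-box was present in 72.3% of all windows and in 11 of 11 windows of the set, so its presence does not set Tpm2 apart.

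The fast skeletal troponin I and T genes both had peaks at the end of the span, with scores near the middle of the list. Tnni2, fast skeletal troponin I, spans only 2.60 kb on chromosome 7 (142441816 to 142444410). Its peak, at 142441535 to 142441667, was 149 bp below the lower-coordinate end and scored 80.7, rank 1324 of 2797. Syt8, a synaptotagmin gene, was the next nearest, at 1.14 kb from the same peak. Tnnt3, fast skeletal troponin T, spans 17.4 kb at 142498771 to 142516213 and had 2 peaks. One, at 142498631 to 142498735, lay 36 bp below the span and scored 68.5, rank 1631. The other, at 142499726 to 142499838, lay inside the span, 955 bp from its lower-coordinate end, and scored 76.7, rank 1402. A gap of 990 bp separated them. These 3 peaks were narrow, at 133, 105 and 113 bp.

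Tnnc2, the fast skeletal troponin C, had no peak. Its span of 2.57 kb on chromosome 2 (164777161 to 164779734) was 344 kb from the nearest one. For comparison, the median distance to the nearest peak over all protein-coding genes was 354 kb (quartiles 120 and 831 kb), and 49.1% of genes had a peak nearer than Tnnc2 did. Among the 3 fast skeletal genes Tnni2 and Tnnt3 thus had a peak and Tnnc2 did not. With a single gene for each subunit, a pattern by subunit was not tested.

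**Figure D2:**
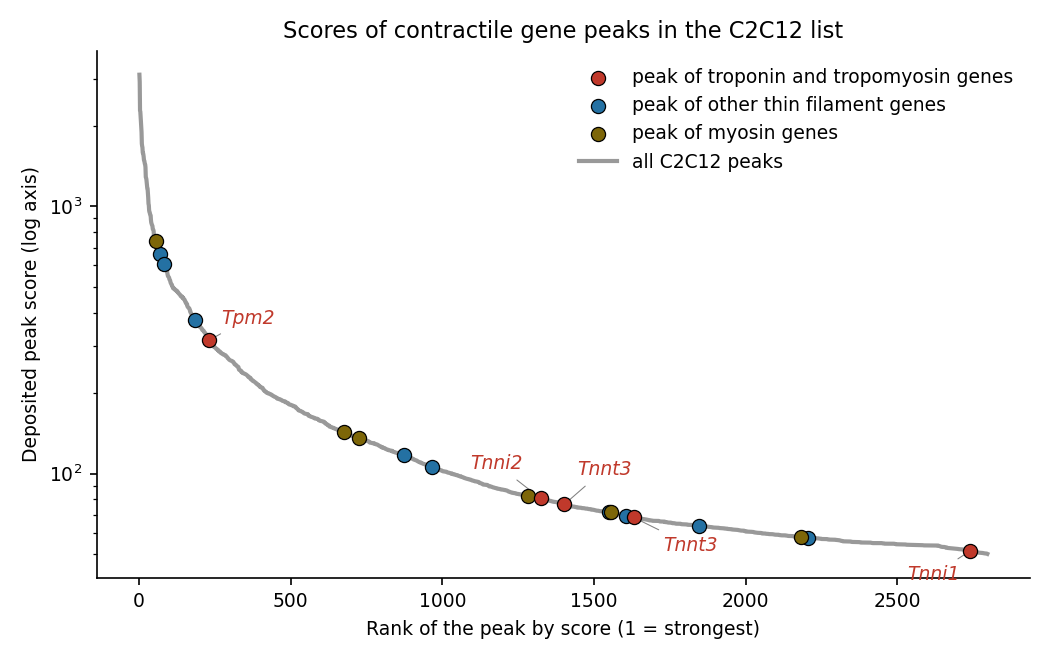
Deposited score (log axis) against rank for the C2C12 peaks (grey line), with the peaks of the troponin and tropomyosin genes (red, named), of other thin filament genes (blue) and of myosin genes (brown) marked. Tpm2 sits at rank 231, while the peaks of Tnni2, Tnnt3 and Tnni1 run from rank 1324 to 2739. The myosin genes include Mylk2, a kinase gene.

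Among the slow skeletal genes, Tnni1 alone had a peak, and it was the weakest of the set. Tnni1 encodes slow skeletal troponin I, which is also the troponin I of the embryonic heart, and spans 28.0 kb on chromosome 1 (135783033 to 135810989). The peak at 135795016 to 135795100 was 85 bp wide and scored 51.3, just above the lowest score in the list (50.1). Its rank was 2739 of 2797. The peak lay inside the span, 12.0 kb from its lower-coordinate end, and no promoter window was given for a start at that end. RefSeq promoter windows place starts at 135799421 and 135799511 on the plus strand. Of these the nearer was 4.32 kb downstream of the peak.

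The Tnni1 promoter windows carried part of a MEF2 box but no peak. Of the 8 genes with a window, Tnni1 alone had the core of the MEF2 box, TA followed by 4 letters that are each A or T and then TA. This core is part of the full MEF2 box, was searched on both strands and occurs in 9.32% of all windows. A match in 1 gene of 8 is near that share. In Tnni1 the core stood at -44 to -37 from the start at 135799421. The other Tnni1 window overlaps the first and holds the same site. The full box was in no window of the set, against 3.19% of all windows. The window at chr1:135799171-135799470 on the plus strand is printed 5′ to 3′ to show the site, with the core in capitals.
Tnni1: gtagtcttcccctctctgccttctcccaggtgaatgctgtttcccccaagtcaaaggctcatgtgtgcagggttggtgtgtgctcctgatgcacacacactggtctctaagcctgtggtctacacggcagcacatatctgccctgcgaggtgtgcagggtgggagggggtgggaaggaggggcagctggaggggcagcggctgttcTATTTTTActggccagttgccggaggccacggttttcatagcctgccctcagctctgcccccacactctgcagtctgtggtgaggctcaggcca

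No peak was assigned to the slow skeletal troponin T gene Tnnt1 or to Tnnc1, the troponin C shared by slow skeletal and cardiac muscle. Tnnt1 (chromosome 7, 4504569 to 4515975) was 890 kb from the nearest peak, and 76.8% of protein-coding genes had a nearer one. Tnnc1 (chromosome 14, 31208312 to 31211729) was 329 kb away, near the median of all genes. The cardiac troponin T gene Tnnt2 (chromosome 1, 135836315 to 135852268), which is also expressed in embryonic skeletal muscle, had no peak of its own. The nearest, at 41.2 kb, was the weak peak inside Tnni1.

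By subunit, peaks were assigned to 2 of 2 troponin I genes, 1 of 3 troponin T genes and 0 of 2 troponin C genes. By fibre type the counts were 2 of 3 fast skeletal genes, 1 of 3 slow skeletal genes, among them Tnnc1, which the heart shares, and 0 of 1 for the cardiac troponin T gene. Over all protein-coding genes 7.73% had an assigned peak. The Tnni1 peak, counted under troponin I and slow skeletal, scored only 51.3, rank 2739 of 2797. No troponin gene had a peak scoring 100 or more, which 3.47% of protein-coding genes had. The groups by subunit and fibre type hold at most 3 genes, and whether they differ was not tested.

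The remaining tropomyosin genes had no assigned peak. Tpm1, alpha-tropomyosin of fast skeletal and cardiac muscle (chromosome 9, 67022590 to 67049672), was 90.7 kb from a strong peak at 67140382 to 67140892. That peak was 511 bp wide and scored 483.9, rank 121, above the Tpm2 peak. It was assigned to Tln2, whose span was nearer at 76.2 kb. Tpm3, the tropomyosin of slow fibres that also gives nonmuscle isoforms (chromosome 3, 90072651 to 90100902), was the farthest of the set from any peak, at 1.58 Mb. Of all protein-coding genes 88.7% had a nearer one.

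Several of these genes lie in neighbouring pairs, and peaks fell unevenly over the pairs. Tnni2 and Tnnt3 are 54.4 kb apart with Lsp1 between them, and both had peaks at a span end. Tnni1 and Tnnt2 are 25.3 kb apart with Lad1 between them, and the single peak there scored 51.3. Another peak, with a score of 69.3, lay 80.0 kb from Tnni1 and was assigned to Nav1, a neuron navigator gene, at 14.5 kb. Tnnt1 and Tnni3, the cardiac troponin I gene, are 2.33 kb apart and neither had one. Tpm2 and Tpm1 each have a talin gene as the next protein-coding neighbour on one side, Tln1 at 7.93 kb and Tln2 at 167 kb. Talins link integrins to actin filaments. Tln1 contained 2 peaks, with scores of 88.4 and 138, at 35.0 and 36.5 kb from Tpm2. Each was weaker than the peak of Tpm2 itself.

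**Figure D3:**
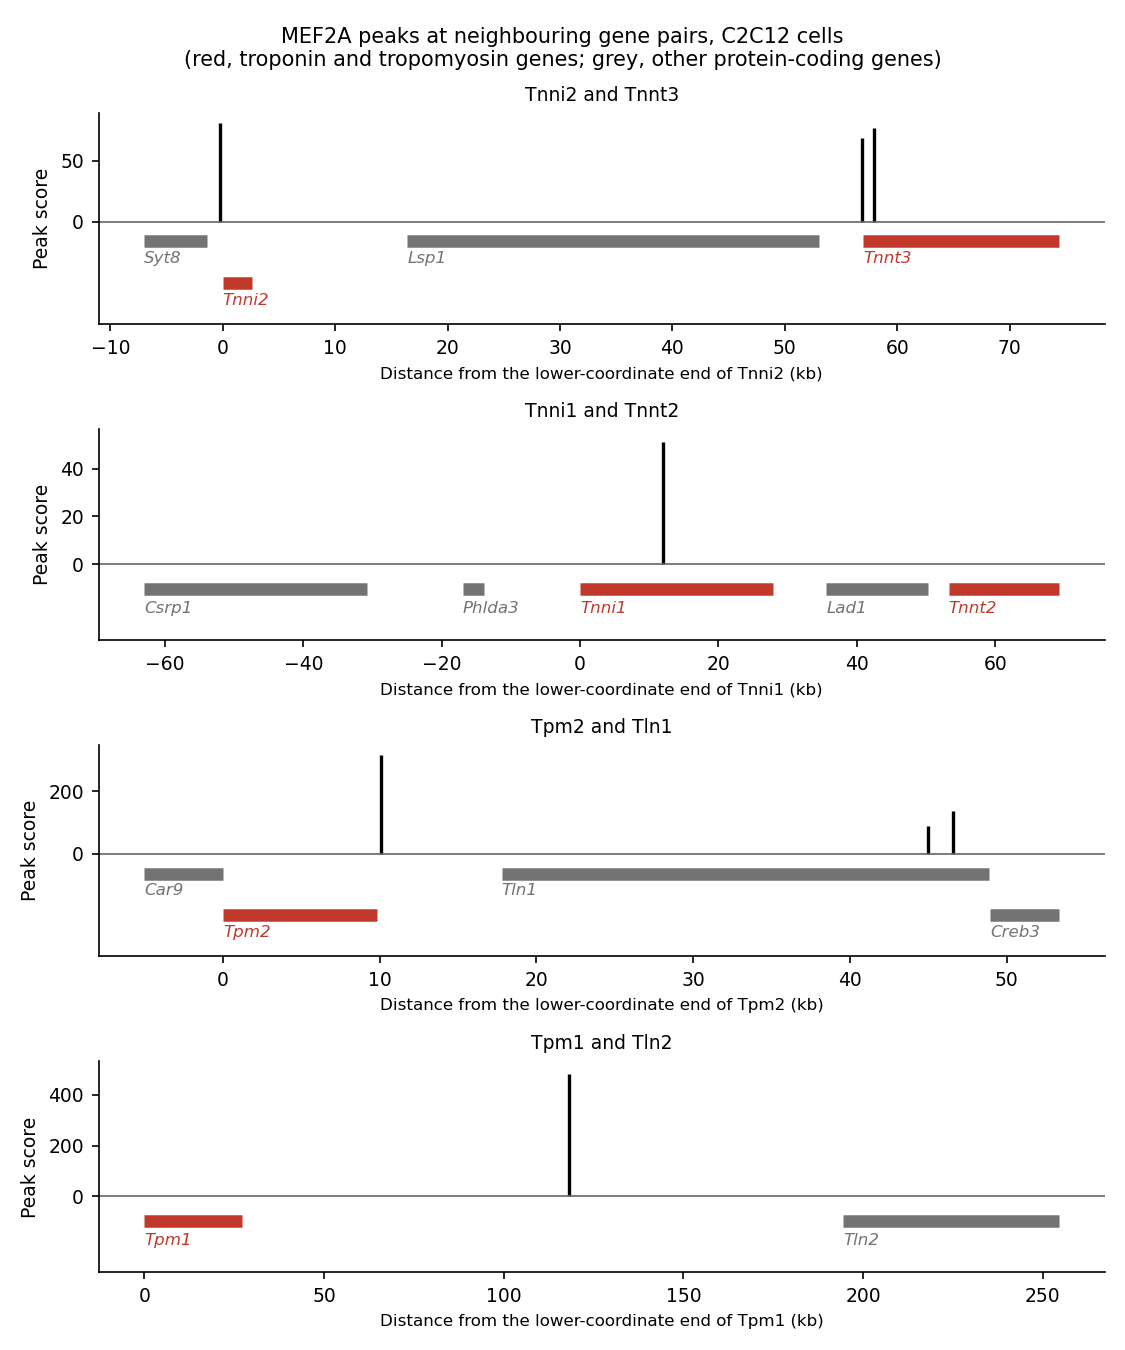
Peaks (vertical lines, height gives the score) and protein-coding spans at 4 pairs of neighbouring genes, by distance in kb from the lower-coordinate end of the first gene. Red spans are troponin and tropomyosin genes, grey spans are other genes, spans that run past an edge are cut there, and each panel has its own score axis. Peaks stand at the ends of Tnni2, Tnnt3 and Tpm2, while the peak between Tpm1 and Tln2 stands away from both.

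Most peaks of the set lay within 1 kb of a gene end, a limit chosen after seeing the data. Within 1 kb of either end of the assigned span lay 4 of the 5 peaks, the exception being the Tnni1 peak. Of all C2C12 peaks 6.79% (190 of 2797) were within 1 kb of an end of a protein-coding span. Those 2797 include 491 peaks assigned to no gene, which cannot lie that near an end. Of the 4 peaks of the set near an end, 2 were the Tnnt3 peaks, 990 bp apart. Of these 2, 1 was only just inside the limit, at 955 bp. When peaks had to lie inside a span or within 1 kb of it, the same 4 genes kept all 5 peaks, and 4.86% of protein-coding genes had one. Counting every peak within 100 kb of a gene, whichever gene was nearest, added Tnnt2 and Tpm1 and gave 6 of 10 genes, where 22.0% of protein-coding genes had such a peak. The nearest peaks of the other 4 genes were 329 kb or more away, so none of them missed the 100 kb limit narrowly.

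**Figure D4:**
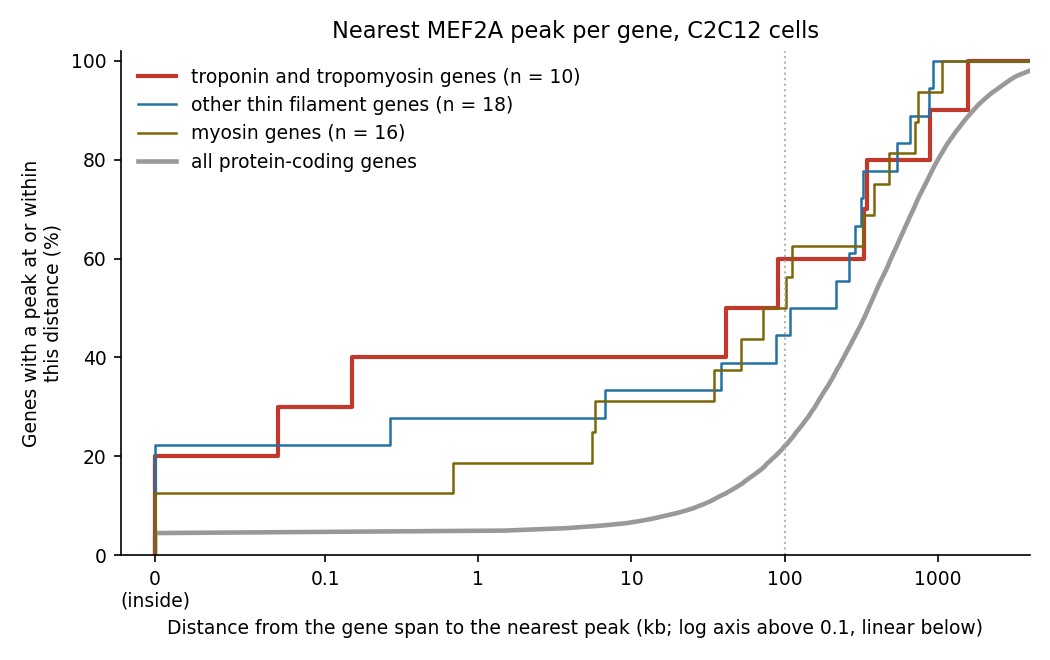
Share of genes (%) with a C2C12 MEF2A peak at or within a given distance of the span in kb, for the troponin and tropomyosin genes (red), other thin filament genes (blue), myosin genes (brown) and all protein-coding genes (grey). The dotted line marks 100 kb, where the red line stands at 6 of 10 genes and the grey line at 22.0%. The myosin genes include Mylk2, a kinase gene.

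Other thin filament genes also had peaks. Of 18 further thin filament genes, 6 (33.3%) had a peak, against 7.73% of all protein-coding genes. The highest belonged to the leiomodin genes Lmod2 (665, rank 69) and Lmod3 (609, rank 82), which encode nucleators of actin filaments. Cfl2, muscle cofilin, had 3 peaks with a top score of 376, and Klhl41, a kelch protein of the sarcomere, a peak of 117 at 0.265 kb. Tmod1, which caps the pointed end of the filament, held a peak of 71.8. Acta1, skeletal alpha-actin, had 2, of 69.5 and 57.5, at 6.73 and 8.47 kb. The other 12, among them Tnni3, Tpm4, Actc1 and Neb, had none. The Tpm2 peak was weaker than the top peaks of Lmod2, Lmod3 and Cfl2.

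The myosin list held 16 genes. These were genes of myosins, the partners of the thin filament in contraction, and Mylk2, which encodes a myosin light chain kinase. Of the 16, 5 (31.2%) had a peak, against 7.73% of all protein-coding genes. The 5 were Myl4 (738), Myh3 (143, with 2 peaks), Mylpf (82.5), Myh2 (71.5) and Mylk2 (58.0). Genes with a peak scoring 100 or more numbered 1 of 10 for troponin and tropomyosin. For the other thin filament genes they numbered 4 of 18, and for the myosin list 2 of 16. Over all protein-coding genes the share was 3.47%. Within 1 kb of an end of the assigned span lay 4 of 5, 5 of 9 and 1 of 6 peaks of the 3 lists, in the same order. Of all C2C12 peaks, including the 491 assigned to no gene, 6.79% lay within 1 kb of an end of a protein-coding span. Differences between these lists were not tested.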

How the data were processed

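ChIP-exo libraries came from the chromatin of sheared nuclei, per the labels' protocols. MACS 1.4.2, BWA 0.5.9, SAMtools, Picard and CASAVA 1.7.0 appear in the submitters' processing notes, as do the builds mm10 and rn5, without settings. The authors deposited 1 list per MEF2A library with a position and a score for each peak. No header states the scale of the score, so it was used only to describe and rank peaks within the C2C12 list. The sources used here do not say whether IgG served as control in peak calling.

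Coordinates, taken as 0-based at the start, were shifted to 1-based. Gene spans came from the RefSeq table of GRCm38.p6 (mm10), which gives no strand or exons. Each peak went to the closest span of a protein-coding gene, if this was within 100 kb, and overlap counted as distance 0. Assignment was checked on simulated data. Start sites, strands and sequences came from RefSeq promoter windows of the same build. Of the 10 genes 8 matched, with 11 windows, while Tnni2 and Tnnt3 did not match. Motifs were searched on both strands.

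The genes, lists and alternatives were chosen with earlier results of these data known. The text names all 10 genes, the genes that take peaks within 100 kb of them and thin filament genes with a peak. In place of only the strongest, it also names all 5 genes of the myosin list with a peak. Tnni3, Tpm4, Actc1 and Neb were named as examples without a peak. Groups followed sample titles. No test was run. Python 3.11.15, numpy 2.4.6, pandas 2.3.3 and matplotlib 3.10.9 were used.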

Additional observations from a re-analysis of the deposited data

How the results depend on the processing

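The 4 genes with a peak were the same at limits of 10, 20 and 50 kb, with distance taken to the nearest end of a span, with all annotated genes competing, with peaks under 1 kb apart merged and at 1 kb, a limit chosen after seeing the data. With a score of at least 100, only 1 gene and 1 peak remained, Tpm2, and likewise 1 gene and 1 peak with a score of at least 200. Of all 21887 protein-coding genes, 759 had a peak of at least 100 and 334 had one of at least 200. At limits of 10, 20 and 50 kb, with any score, the counts over all protein-coding genes were 1259, 1384 and 1560. Counting any peak within 100 kb gave 6 genes and 9 peaks in place of 4 and 5. Such a peak was present for 22.0% of all protein-coding genes. The number of peaks was 4 after merging, which joins those of Tnnt3, and 4 with all annotated genes competing, where a noncoding gene takes 1 Tnnt3 peak. Nearest ends of spans stood in for start sites, since the gene table gives no strand. The alternatives for rat genes were not run, because no rn5 annotation was used. Since depth is unknown and there is no replicate, the 5 peaks have no second measurement, and sites under the lowest listed score at the 6 genes with none were not seen. No paired analysis was possible because the groups hold a single library each.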

Other observations

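Noncoding genes overlap some of the peaks described. The span of Prr33, listed as a lncRNA (chromosome 7, 142491080 to 142506771), covers both Tnnt3 peaks, so these positions carry 2 gene names. The strong peak between Tpm1 and Tln2 lies inside the span of the lncRNA Gm19299 (chromosome 9, 67133561 to 67163788). The peaks of Tpm2 and Tnni2 overlap no annotated span, and that of Tnni1 overlaps no span but its own.

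The neighbourhoods of the 10 genes differed in the number of peaks. Within 1 Mb of the span there were 9 peaks for Tnni1, 8 for Tnnt2, 8 for Tpm2, 4 for Tnni2 and 4 for Tnnt3, against a median of 2 over all protein-coding genes. Tnnc1, Tnnc2 and Tpm1 had 2 each, Tnnt1 had 1 and Tpm3 had 0. These counts include peaks shared by neighbouring genes.

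The MCAT element (CATTCC, bound by TEAD proteins, either strand) was present in 3 of 11 promoter windows of the set, those of Tnnt2 at -27, Tnnc1 at -58 and Tpm1 at -56, against 14.7% of all windows. None of these 3 windows was overlapped by a peak. The CArG box, bound by serum response factor, was in 0 of 11 windows, against 1.63% of all.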
